A study of Mus musculus with 24 samples.

Results

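The second day of Activin A treatment was described in wild-type CJ9 mouse embryonic stem cells by setting 3 libraries of day 4 against 3 libraries of day 3. These 6 of the series' 24 libraries were taken by genotype and day from the sample labels, and 17144 genes passed the filter on low counts and were tested. Both groups were unedited cells of a single line that had been grown with LIF over inactivated feeder fibroblasts of mouse embryos, taken off these feeder cells, and held for 2 days in a serum-free medium for endoderm. On day 2 the cells were dispersed and replated in that medium plus Activin A, so the day 4 libraries came from cells with 2 days of Activin A and the day 3 libraries from cells with 1 day. The remaining libraries hold wild-type cells of days 0 and 2, which serve below as the earlier course, and cells of 1 CRISPR Setd3 knock-out line at the same 4 days, which enter only where named. The labels do not say whether the replicates were separate cultures, so the p-values measure a spread between libraries of a group that may be technical. That spread was estimated with all 24 libraries of the series, not with these 6 alone.

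Activin A binds activin receptors that also serve the embryonic ligand Nodal, and the receptors act through SMAD2 and SMAD3. In the mouse gastrula this pathway, together with Wnt, drives epiblast cells through the primitive streak, marked by T (Brachyury), Mixl1 and Eomes, and high signalling directs streak cells to definitive endoderm, marked by Sox17, Foxa2 and Cxcr4. The streak also gives rise to mesoderm, including that of the heart, and the node at its anterior end carries motile cilia.

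Polyadenylated RNA was sequenced, and the deposited counts per gene summed to between 20345447 and 21410794 in the day 4 libraries and to between 18756912 and 22540026 in the day 3 libraries. Levels below are in CPM, the usual unit of counts relative to library size, with library sizes scaled by TMM. A change is called where edgeR's quasi-likelihood test gave a Benjamini-Hochberg adjusted p under 0.05 over all tested genes, and the value after ± is the log2 fold change divided by the root of that test's F value where it follows a log2 fold change, and the SD of the 3 libraries where it follows a mean CPM. The first principal component of the 6 libraries held 90% of their variance and separated the days. Of the 562 genes that were at least 4-fold higher on day 4, replicate 1 was the highest day 4 library for 382 (68%) and the highest day 3 library for 311 (55.3%), and replicate 3 was the lowest day 4 library for 368 (65.5%) and the lowest day 3 library for 295 (52.5%). Measured against stage markers, the day 3 libraries already held Foxa2 beside the streak genes T, Eomes and Mixl1, and the day 4 libraries still held Eomes. Sox2 was at 0 counts in all 24 libraries, as were all 37 mitochondrially encoded entries, and neither is used here.

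Between the first and the second day of Activin A, 7803 of 17144 genes (45.5%) changed, 3843 of them higher on day 4 (22.4%) and 3960 lower (23.1%). Large changes leaned upwards: 562 genes (3.28%) were at least 4-fold higher on day 4, against 279 (1.63%) at least 4-fold lower (155 in a fit of the 6 libraries alone), and 934 genes (5.45%) fell at least 2-fold while 1402 (8.18%) rose at least 2-fold. The median log2 fold change over all tested genes was -0.01. Counts of list members below are to be read beside the 22.4% of all tested genes that rose and the 23.1% that fell. The 3 libraries of day 4 did not overlap the 3 of day 3 for 8912 genes (52%). Protein-coding genes split almost evenly, with 3555 of 14553 higher (24.4%) and 3666 lower (25.2%). Antisense entries had 58 of 355 higher (16.3%) and 28 lower (7.89%), and processed pseudogenes had 28 of 860 higher (3.26%) and 94 lower (10.9%). No source used here states the strand setting or the treatment of reads with several origins, so counts of antisense and pseudogene entries, and of their parent genes, are uncertain.

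**Figure D1:**
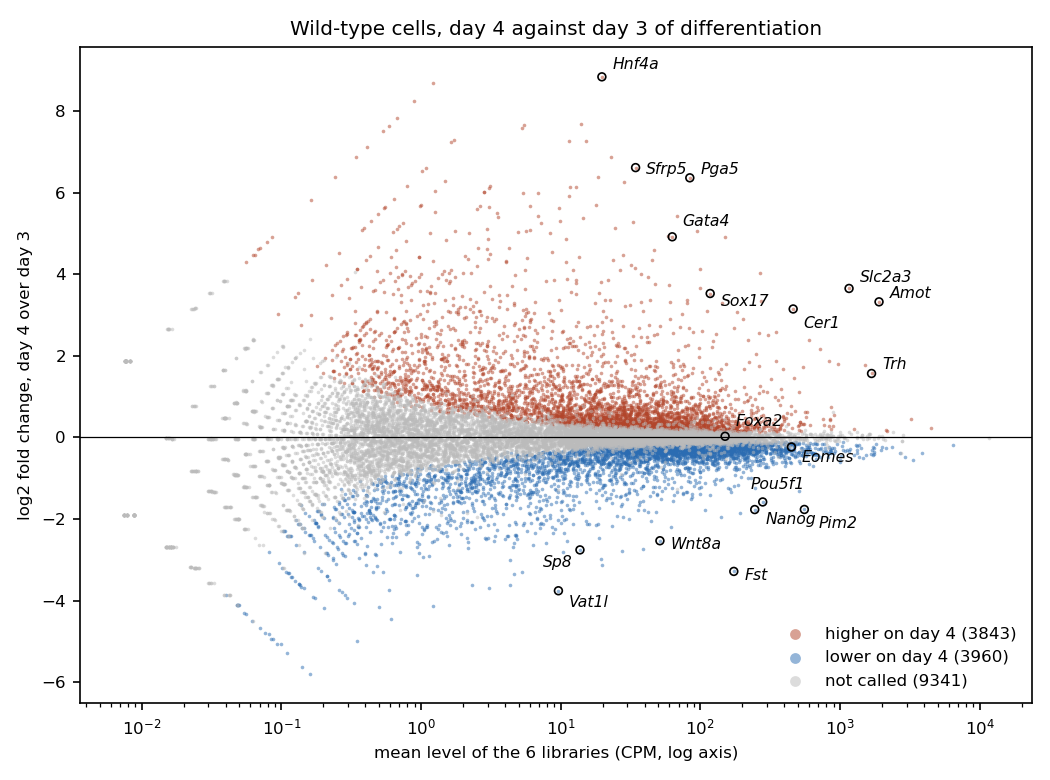
Each point is 1 tested gene, with the mean CPM of the 6 libraries on a log axis against the log2 fold change of day 4 over day 3; red points are the 3843 genes called higher on day 4, blue points the 3960 called lower, and grey points were not called. Circles mark genes described in the text, and above a mean of 10 CPM the points reach from -3.28 (Fst) to 8.84 (Hnf4a).

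Most definitive endoderm regulators rose. All 16 listed transcription factors were tested, and 13 (81.2%) rose, none fell and 3 were not called, with a median log2 fold change of 2.36 against -0.01 over all tested genes. Sox17, a Sox factor used as a marker of definitive endoderm, had 229.5, 211 and 209 CPM in the day 4 libraries, against 38.8, 12.4 and 5.14 CPM in the day 3 libraries (3.53 ± 0.47 log2, adjusted p = 9.03e-06). The day 4 libraries lay close together, whereas the day 3 libraries were spread over several-fold, with no overlap between the days. Gata4, a GATA factor of endoderm and heart, had 161, 112 and 92.3 CPM on day 4, against 6.37, 3.78 and 1.97 CPM on day 3 (4.92 ± 0.27 log2, adjusted p = 3.13e-11). Gata6, its relative at the head of the endoderm programme, had 237, 187 and 175 CPM on day 4, against 46.7, 16.3 and 7.37 CPM on day 3 (3.09 ± 0.46 log2, adjusted p = 2.79e-05). Both GATA genes were highest in replicate 1 and lowest in replicate 3 on each day, and the days did not overlap. Hnf4a (ENSMUSG00000017950, GRCm38 chr2:163506808-163572910, plus strand), a nuclear receptor of liver and gut, had 55.2, 39.1 and 23.97 CPM on day 4, against 0.189, 0 and 0.0447 CPM on day 3 (8.84 ± 0.53 log2, adjusted p = 1.69e-10), the highest log2 fold change among the called genes that reached a mean of 10 CPM on either day and did not overlap between the days. Its 3 day 3 libraries held 5 counts in all, so its fold is loosely set. With day 3 replicate 1 left out the log2 fold changes were 4.65 for Sox17, 4.09 for Gata6 and 10.35 for Hnf4a.

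Prdm1, a zinc finger repressor of anterior endoderm, had 122.5, 106 and 102 CPM on day 4, against 12.8, 7.19 and 4.65 CPM on day 3 (3.75 ± 0.23 log2). Lhx1, a LIM homeobox factor of the anterior streak, had 1182, 920.4 and 904 CPM on day 4, against 340.3, 156 and 80.3 CPM on day 3 (2.38 ± 0.42 log2, adjusted p = 0.000177). Hhex, a homeobox factor of anterior endoderm and liver bud, had 145, 119 and 106 CPM on day 4, against 30.8, 16.3 and 9.203 CPM on day 3 (2.72 ± 0.32 log2). The libraries of the days did not overlap for these 3 genes. Foxa1 and Foxa3, the forkhead partners of Foxa2 in gut endoderm, rose by 2.24 and 2.34 on the log2 scale, and Otx2, a homeobox factor of anterior endoderm and epiblast, rose by 1.00. The 3 regulators that were not called, Foxa2, Eomes and Mixl1, were already present on day 3. Foxa2, the pioneer forkhead factor of endoderm and node, had 145, 159.9 and 151 CPM on day 4, against 177, 152 and 118 CPM on day 3 (0.03 ± 0.23 log2, adjusted p = 0.937). Its day 4 values lay inside the day 3 range. Eomes, the T-box factor at the start of endoderm specification, had 498, 385 and 356 CPM on day 4, against 552, 492 and 412 CPM on day 3 (-0.23 ± 0.20 log2, adjusted p = 0.362). Mixl1 averaged 125 ± 9.33 CPM on day 4 and 179.6 ± 76.5 CPM on day 3 (-0.53 ± 0.27 log2, adjusted p = 0.127), and without day 3 replicate 3 it was called lower (-0.77 log2, adjusted p = 0.0273). Leaving out day 3 replicate 1, the log2 fold change of Lhx1 was 3.09, and that of Foxa2 was -0.01 without day 4 replicate 2 and -0.12 without day 3 replicate 3. In these bulk libraries, a larger share of cells of a type and more RNA per cell cannot be told apart.

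**Figure D2:**
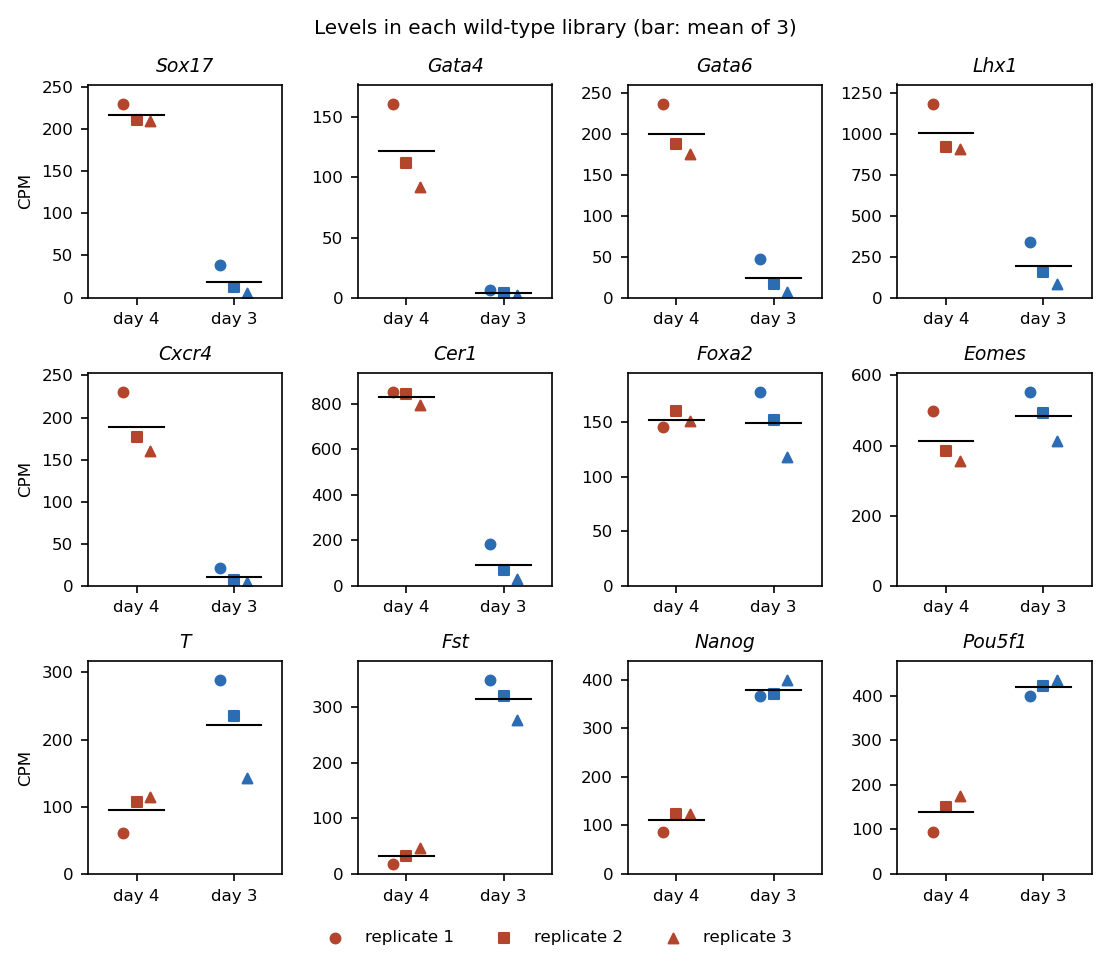
CPM in each of the 3 day 4 libraries (red, left) and 3 day 3 libraries (blue, right) for 12 genes, with replicates 1, 2 and 3 as circle, square and triangle and the mean as a bar. Sox17, Gata4, Gata6, Lhx1, Cxcr4 and Cer1 lay higher on day 4 with no overlap, Fst, T, Nanog and Pou5f1 lay lower with no overlap, and the days overlapped for Foxa2 and Eomes.

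Secreted and surface genes of definitive endoderm rose with the regulators. Of 14 listed genes 13 were tested, of which 12 (92.3%) rose and 1 fell, with a median log2 fold change of 3.02. Cxcr4, the chemokine receptor used to isolate definitive endoderm, had 230.2, 176 and 159.8 CPM on day 4, against 21.4, 6.92 and 4.15 CPM on day 3 (4.12 ± 0.42 log2, adjusted p = 4.19e-07). Cer1, a secreted inhibitor of Nodal, BMP and Wnt made by anterior endoderm, had 852, 844 and 796 CPM on day 4, against 182, 67.8 and 31.1 CPM on day 3 (3.15 ± 0.55 log2, adjusted p = 0.000382). The day 4 libraries of Cer1 differed little, and its day 3 libraries differed several-fold. Trh, which encodes the precursor of thyrotropin-releasing hormone, had 2396, 2611 and 2544 CPM on day 4, against 727, 872 and 947 CPM on day 3 (1.57 ± 0.11 log2). Its rise per kilobase of exon was the largest among the genes that met the same conditions, at 1819 CPM per kb on day 4 against 613 CPM per kb on day 3. Trh was not particular to these days, with a wild-type mean of 607 CPM on day 0. In the knock-out it averaged 1028 CPM on day 3 and 1449 CPM on day 4. Kit, the receptor tyrosine kinase that also serves as a surface marker of endoderm, had 223, 192 and 187 CPM on day 4, against 77.4, 63.4 and 56.9 CPM on day 3 (1.61 ± 0.16 log2). Clic6, an intracellular chloride channel protein, and Shisa2, a membrane antagonist of FGF and Wnt receptors, rose by 5.06 and 3.29 on the log2 scale. The member that fell was the ligand gene Fgf17, at 1.43, 2.65 and 4.05 CPM on day 4, against 14.8, 11.7 and 8.67 CPM on day 3 (-2.10 ± 0.23 log2). In a fit that omitted day 3 replicate 1, the log2 fold changes were 5.11 for Cxcr4 and 4.08 for Cer1.

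The genes with the highest log2 fold changes have varied roles. Sfrp5, a secreted Wnt antagonist of foregut endoderm, had 98.6, 66.3 and 39.6 CPM on day 4, against 1.04, 0.533 and 0.491 CPM on day 3 (6.61 ± 0.37 log2). Pga5, a pepsinogen of the stomach, had 246, 155 and 98.4 CPM on day 4, against 3.302, 2.02 and 0.7595 CPM on day 3 (6.36 ± 0.36 log2), or 103 CPM per kb of exon on day 4 against 1.26 on day 3. Spink1, a trypsin inhibitor of the pancreas, averaged 36.8 ± 15.6 CPM on day 4 and 0.438 ± 0.429 CPM on day 3 (6.39 ± 0.45 log2). All 3 genes were highest in day 4 replicate 1 and lowest in day 4 replicate 3. Tph1, an enzyme of serotonin synthesis, rose by 6.26, Akr1c19, an aldo-keto reductase, by 7.69, the potassium channel gene Kcnj5 by 6.14, the alpha-tubulin gene Tuba8 by 6.14 and the serine protease gene Prss12 by 5.92 on the log2 scale. The paired immunoglobulin-like receptor genes Pilra, Pilrb1 and Pilrb2 had log2 fold changes of 7.26, 7.59 and 7.25. They are close copies next to each other on chromosome 5, as Akr1c19 and the olfactory receptor gene Olfr461 (5.99 log2) have close relatives, so reads may have been split or shared between copies. Tbx1, a T-box factor of pharyngeal endoderm and mesoderm, had 113 counts over the day 4 libraries and 0 over the day 3 libraries, at least 36.8-fold higher against a floor of 3 counts per group. Without day 3 replicate 1 the log2 fold changes were 9.84 for Akr1c19, 7.51 for Spink1, 7.05 for Tph1, 7.89 for Pilra and 8.43 for Pilrb1, and without day 3 replicate 3 that of Akr1c19 was 7.08.

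The 8 largest rises per kilobase of exon were those of Trh, Cer1, Amot, Cd24a, Ldha, Car4, Slc2a3 and Krt8, of which Ldha, Slc2a3 and Krt8 are described with their lists. Cer1 stood at 478 CPM per kb on day 4 against 53.8 on day 3, and Amot at 412 on day 4 against 41.1 on day 3. Amot, which encodes angiomotin, a scaffold that ties tight junctions to the Hippo pathway, had 4062, 3283 and 3042 CPM on day 4, against 428, 332 and 278 CPM on day 3 (3.32 ± 0.28 log2, adjusted p = 5.31e-08). Cd24a, a surface glycoprotein of epithelia, had 1481, 1308 and 1148 CPM on day 4, against 435, 320.3 and 319.5 CPM on day 3 (1.87 ± 0.09 log2). Car4, a membrane-bound carbonic anhydrase, had 983, 782 and 719.5 CPM on day 4, against 263, 252 and 237 CPM on day 3 (1.72 ± 0.14 log2). These 3 genes were picked among genes without overlap between the days. Of 390 listed solute carrier genes 294 were tested, and 83 rose (28.2%) and 66 fell (22.4%), beside 22.4% and 23.1% of all tested genes. Beside the glucose transporter Slc2a3, described below, the monocarboxylate transporter gene Slc16a1 had 1327, 1222 and 975 CPM on day 4, against 277, 267 and 241 CPM on day 3 (2.17 ± 0.08 log2).

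The markers of other endoderm moved less evenly. Of 21 listed visceral endoderm and liver secretory genes 13 were tested, of which 7 rose, 2 fell and 4 were not called, with a median log2 fold change of 0.95. Apoe, an apolipoprotein, had 253, 194 and 160.04 CPM on day 4, against 58.6, 73.9 and 75.3 CPM on day 3 (1.55 ± 0.12 log2), and had been higher, at a mean of 342 CPM, on day 0. Lrp2, the endocytic receptor megalin, fell to 5.75, 10.6 and 14.1 CPM on day 4, against 42.4, 76.2 and 83.2 CPM on day 3 (-2.72 ± 0.27 log2). Afp, alpha-fetoprotein, had counts in 1 of the 6 libraries and Ttr, transthyretin, did not pass the filter, so both defining transcripts of visceral endoderm were near 0. Of the 10 parietal endoderm genes 5 rose and 5 were not called, and the risers included the basement membrane collagen genes Col4a1 (1.68 ± 0.24 log2) and Col4a2 (1.76 ± 0.28 log2). Thbd, which encodes thrombomodulin, had 0.393, 0.559 and 0.227 CPM on day 4 and 0.236, 0.266 and 0.268 CPM on day 3 (0.60 ± 1.03 log2, adjusted p = 0.672). Of 16 listed regulators of gut tube regions 11 were tested, of which 3 rose and 2 fell. Irx3 had 25.1, 22.4 and 18.2 CPM on day 4, against 2.92, 1.12 and 1.43 CPM on day 3 (3.57 ± 0.46 log2), and Prox1, a homeobox factor of liver and pancreas, had 4.13, 8.34 and 7.96 CPM on day 4, against 22.4, 23.2 and 15.3 CPM on day 3 (-1.57 ± 0.23 log2). The hindgut gene Cdx2 was at most 0.5004 CPM. Of 39 listed Hox genes 18 passed the filter, and these summed to between 0.364 and 1.03 CPM in the day 4 libraries and to between 1.39 and 1.74 CPM in the day 3 libraries.

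The primitive streak genes moved in both directions. Of 16 listed genes 15 were tested, of which 4 rose (26.7%), 5 fell (33.3%) and 6 were not called, with a median log2 fold change of -0.53. Over all tested genes 22.4% rose and 23.1% fell. T, the T-box factor of the streak and notochord, had 61.2, 108 and 115 CPM on day 4, against 288, 235 and 143 CPM on day 3 (-1.23 ± 0.34 log2, adjusted p = 0.00679). Day 4 replicate 1 was lowest and day 3 replicate 1 highest, and the days did not overlap. Fst (ENSMUSG00000021765, GRCm38 chr13:114452290-114458951, minus strand), which encodes follistatin, a secreted protein that binds and blocks Activin, had 17.9, 32.1 and 46.9 CPM on day 4, against 349, 319 and 278 CPM on day 3 (-3.28 ± 0.35 log2, adjusted p = 7.79e-07). Sp8, a zinc finger factor downstream of Wnt, had 1.52, 4.42 and 4.64 CPM on day 4, against 20.99, 25.6 and 25.3 CPM on day 3 (-2.75 ± 0.27 log2). For both genes every day 4 library lay far below every day 3 library, though the rule that named them required no overlap. Gsc, the homeobox factor of the anterior streak, moved the other way, at 197, 172 and 174 CPM on day 4, against 134, 74.4 and 53.9 CPM on day 3 (1.04 ± 0.30 log2, adjusted p = 0.00862), a call that was lost in a fit of the 6 libraries alone. Mesp1, a bHLH factor of cardiac progenitors leaving the streak, had 14.6, 11.1 and 13.5 CPM on day 4, against 4.48, 1.06 and 0.402 CPM on day 3 (2.71 ± 0.51 log2). Fgf8, a ligand of the streak, was not called, with 198, 193 and 189 CPM on day 4 and 195, 174 and 162 CPM on day 3. With day 3 replicate 1 left out the log2 fold change of Mesp1 was 4.18.

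Most core pluripotency and epiblast genes fell, and fewer of the naive genes did. Of the 10 tested core pluripotency genes 7 (70.0%) fell, 2 rose and 1 was not called, with a median log2 fold change of -1.43. Pou5f1, which encodes OCT4, had 94.9, 151 and 175 CPM on day 4, against 401, 422 and 435 CPM on day 3 (-1.58 ± 0.13 log2, adjusted p = 2.09e-08). Nanog, on the list of naive genes, had 86.1, 124 and 125 CPM on day 4, against 367, 372 and 399 CPM on day 3 (-1.77 ± 0.09 log2, adjusted p = 4.75e-12). Day 4 replicate 1 was the lowest library for both, and all day 3 libraries lay far above. Dppa2 fell to 0.443, 1.07 and 0.9098 CPM on day 4, against 6.75, 9.16 and 9.29 CPM on day 3, and Dppa5a fell to 4.13, 7.59 and 9.23 CPM on day 4, against 40.3, 54.7 and 50.4 CPM on day 3. Both are developmental pluripotency-associated genes. Sall4, a zinc finger factor, rose, at 484, 453 and 472 CPM on day 4 against 248, 287 and 276 CPM on day 3. Pim2, a serine/threonine kinase, had one of the 8 largest falls per kilobase of exon, at 90.5 CPM per kb on day 4 against 307 on day 3 (-1.76 ± 0.22 log2).

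Of the 16 naive genes 7 (43.8%) fell, 4 rose and 5 were not called. Their day 3 levels were already far below those of day 0 for most members: Zfp42 had 2.803, 3.82 and 4.504 CPM on day 4, against 8.21, 11.7 and 8.44 CPM on day 3, after a mean of 787 CPM on day 0. Tbx3, a T-box factor of naive cells and also of endoderm and mesoderm, returned: it had 48.8, 31.8 and 25.4 CPM on day 4, against 1.13, 0.479 and 0.402 CPM on day 3 (5.70 ± 0.29 log2), after means of 87.7 CPM on day 0 and 1.104 CPM on day 2. Tet2, a 5-methylcytosine oxidase, rose by 1.51 and Klf4, a zinc finger factor, by 0.66 on the log2 scale, both far under their day 0 means of 139.9 and 212 CPM. Of 12 formative and primed epiblast genes 9 (75.0%) fell, 1 rose and 2 were not called. Pou3f1, a POU factor of the epiblast and neural plate, had 8.61, 16.1 and 19.1 CPM on day 4, against 29.7, 40.5 and 48.97 CPM on day 3 (-1.44 ± 0.23 log2). Zic5 and Lin28b fell by 0.79 and 0.62 on the log2 scale with the lowest adjusted p of the list. Fgf5, the standard epiblast marker, was not called, at 389, 395 and 376 CPM on day 4 and 433, 385 and 361 CPM on day 3. With only day 3 and day 4 in the fit, 4 naive genes fell in place of 7. Leaving out day 3 replicate 1, the log2 fold change of Tbx3 was 6.31.

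**Figure D3:**
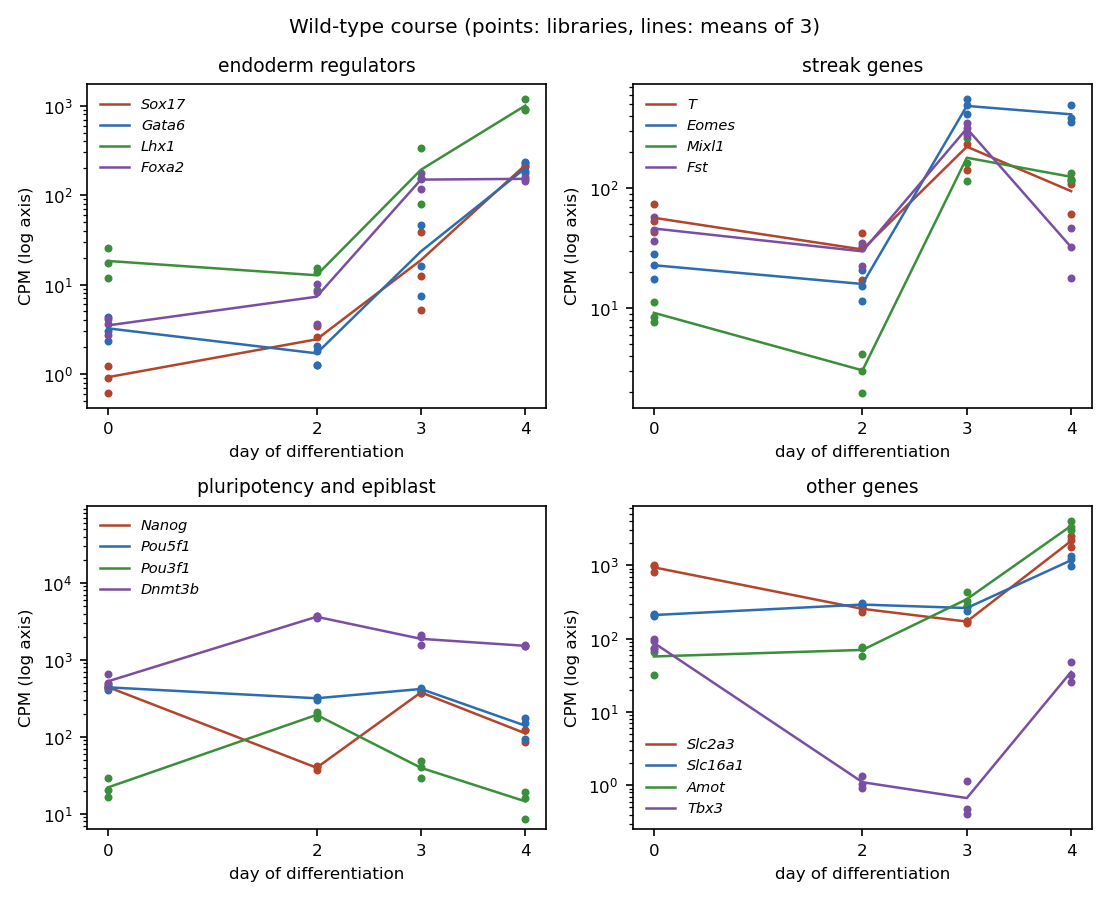
CPM on a log axis over days 0, 2, 3 and 4 of the wild-type course; points are the 3 libraries of a day and lines join their means. Sox17, Gata6 and Lhx1 go on rising to day 4 while Foxa2 is level, Fst and T are highest on day 3, Nanog is high on days 0 and 3, and Slc2a3 and Tbx3 are lower on days 2 and 3 than on days 0 and 4.

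Most genes with large rises reached their highest level of the course on day 4. Of the 562 genes at least 4-fold higher on day 4, 466 (82.9%) had their highest mean of the wild-type course on day 4 and 79 (14.1%) on day 0, while 272 (48.4%) had their lowest mean on day 3. Their median CPM over the course was 0.90 on day 0, 0.78 on day 2, 0.40 on day 3 and 4.27 on day 4. Of the 279 genes at least 4-fold lower on day 4, 145 (52.0%) had their highest mean on day 0, 91 (32.6%) on day 2 and 43 (15.4%) on day 3. Of all 3960 genes that fell, 1529 (38.6%) had peaked on day 3. Genes were grouped here by the same day 4 and day 3 values, so the counts describe them and carry no test.

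Cardiac mesoderm genes rose along with those of endoderm. Of 19 listed cardiac mesoderm genes 14 were tested, of which 10 (71.4%) rose and 2 fell, Mef2c and Smarcd3, with a median log2 fold change of 3.02. The call of Mef2c was lost without day 3 replicate 3. That of Smarcd3 was lost without day 3 replicate 1 or 3, without day 4 replicate 1 or 2, with DESeq2 size factors, with no filter on low counts and with only the groups compared in the fit. Gata4 and Gata6 are on this list as well as on that of endoderm. Tbx20, a T-box factor of the heart, had 28.6, 18.9 and 10.5 CPM on day 4, against 0.425, 0.586 and 0.447 CPM on day 3 (5.31 ± 0.35 log2, adjusted p = 1.73e-11). Myocd, which encodes myocardin, a muscle co-activator of serum response factor, had 16.1, 10.1 and 5.46 CPM on day 4, against 0.0943, 0.1598 and 0.223 CPM on day 3 (5.99 ± 0.46 log2). Hand1, a bHLH factor of heart and extraembryonic mesoderm, had 19.7, 10.99 and 9.599 CPM on day 4, against 0.708, 0.106 and 0.0894 CPM on day 3 (5.44 ± 0.61 log2). All 3 were highest in day 4 replicate 1, and no library of day 3 reached 1 CPM. Myl7, an atrial myosin light chain, had 16.97, 8.43 and 5.41 CPM on day 4, against 0.613, 1.01 and 0.849 CPM on day 3, whereas Tbx5, a factor of the later heart tube, was not called and stayed at or below 0.326 CPM. Of 16 tested endothelial and blood genes 5 rose, 1 fell and 10 were not called. Kdr, a VEGF receptor of vascular progenitors, had 75.2, 36.3 and 32.6 CPM on day 4, against 2.26, 1.22 and 0.581 CPM on day 3 (5.15 ± 0.38 log2), and Runx1, a factor of blood formation, rose by 2.94 on the log2 scale, while Pecam1, Cd34 and Erg were not called and were at or under 1.92 CPM. In the lateral and extraembryonic mesoderm list 5 of 12 tested genes rose and 1 fell, led by Tbx3 and by Msx2 at 23.5, 17.6 and 16.4 CPM on day 4 against 0.613, 0.213 and 0.313 CPM on day 3. In a fit that omitted day 3 replicate 1, the log2 fold changes were 7.02 for Hand1, 6.31 for Tbx3 and 5.76 for Kdr.

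Genes of motile cilia rose. Of 20 listed genes 18 were tested, of which 12 (66.7%) rose, none fell and 6 were not called, with a median log2 fold change of 1.06. Foxj1, the forkhead regulator of motile ciliogenesis, had 52.96, 95.6 and 107 CPM on day 4, against 39.1, 40.2 and 23.1 CPM on day 3 (1.32 ± 0.30 log2, adjusted p = 0.00159). Tppp3, a tubulin polymerisation protein, had 16.1, 26.9 and 19.9 CPM on day 4, against 1.46, 1.704 and 1.12 CPM on day 3 (3.88 ± 0.29 log2). Cfap126 and Tekt2, both axonemal genes, rose by 2.85 and 3.29 on the log2 scale. Day 4 replicate 1, the highest day 4 library for Sox17, Gata4 and Gata6, was the lowest day 4 library for these 4 genes. Rfx3, which encodes a factor that acts with Foxj1, was not called, at 54.05, 66.8 and 71.6 CPM on day 4 and 62.9, 56.9 and 46.1 CPM on day 3, but was called higher without day 4 replicate 1 (adjusted p = 0.0303) and without day 3 replicate 1 (adjusted p = 0.0411). Of the 9 tested node and notochord genes 5 rose, 1 fell and 3 were not called. Noto, the homeobox factor of the node, had 0.885, 2.28 and 2.41 CPM on day 4, against 0.472, 0.533 and 0.357 CPM on day 3 (2.04 ± 0.43 log2), and Nog, a BMP antagonist of the node, had 2.61, 1.68 and 1.23 CPM on day 4, against 0.377, 0.106 and 0.223 CPM on day 3 (2.90 ± 0.50 log2).

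Genes of ectoderm, trophoblast and germ cells gave mixed counts. Of 11 tested neuroectoderm genes 3 rose, 4 fell and 4 were not called. Nes, which encodes the intermediate filament nestin, had 74.1, 122 and 148 CPM on day 4, against 248, 268 and 256 CPM on day 3 (-1.16 ± 0.17 log2), and Sox3 had 7.43, 11.2 and 12.9 CPM on day 4 against 16.4, 22.05 and 23.5 CPM on day 3. Pax6, a homeobox factor of the neural plate, was at or below 0.266 CPM. Of 10 tested trophoblast genes 5 rose, among them Gata3 and Hand1, which mesoderm also uses, and Ascl2 at 8.75, 7.404 and 4.91 CPM on day 4 against 0.283, 0 and 0.179 CPM on day 3, while Cdx2 was not called. Of 9 tested germ cell genes 3 rose and 4 fell (2 fell without day 4 replicate 3 or without day 3 replicate 2), the risers being Prdm1, Kit and Nanos3. The call of Nanos3 was lost without day 4 replicate 1 (adjusted p = 0.0521). Without day 3 replicate 1 the log2 fold changes were 6.96 for Gata3, 6.09 for Ascl2 and 7.02 for Hand1, and that of Gata3 was 4.89 without day 3 replicate 3.

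Fibroblast markers were low on both days and lower on day 4. The 18 feeder genes summed to between 37.5 and 41.4 CPM in the day 4 libraries and to between 64.5 and 68.8 CPM in the day 3 libraries. Of the 18, 6 fell, none rose and 12 were not called, with a median log2 fold change of -1.096. S100a4 was at 0 counts in all 6 libraries. Thy1, a surface glycoprotein on this list, had 1.08, 1.68 and 1.73 CPM on day 4, against 6.65, 8.31 and 9.34 CPM on day 3 (-2.43 ± 0.35 log2, adjusted p = 1.58e-05), and without day 4 replicate 1 it was the only one of the 18 that fell. It did not follow S100a4 over the earlier course. Thy1 averaged 52.6 CPM on day 0 and 27.8 CPM on day 2, and S100a4 averaged 10.8 and 0.0348 CPM. Which cells made the Thy1 RNA was not tested. Of the 18, 3 fell without day 4 replicate 2, 2 fell without day 3 replicate 1 and 3 fell without day 3 replicate 3. The part of residual feeder RNA in the changes of actin and matrix genes was not tested.

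In the Nodal and Activin pathway, 21 of 23 listed genes were tested, of which 11 (52.4%) rose, 4 fell and 6 were not called, with a median log2 fold change of 0.19. Among ligands, Nodal fell to 100.7, 98.1 and 88.02 CPM on day 4, against 144, 148 and 152 CPM on day 3 (-0.63 ± 0.14 log2, adjusted p = 0.00092), and Gdf3 to 0.492, 1.68 and 1.77 CPM on day 4, against 5.71, 8.89 and 9.25 CPM on day 3. The co-receptors diverged. Cfc1, which encodes the co-receptor Cryptic, had 162, 126 and 112 CPM on day 4, against 6.23, 2.24 and 0.849 CPM on day 3 (5.43 ± 0.39 log2, adjusted p = 4.29e-09), whereas Tdgf1, which encodes its relative Cripto, was not called, at 487, 539 and 542 CPM on day 4 and 827, 624 and 531 CPM on day 3, and was called lower without day 3 replicate 3 (adjusted p = 0.0396). The secreted inhibitor Lefty1 had 439, 395 and 379.8 CPM on day 4, against 134, 89.5 and 70.9 CPM on day 3 (2.04 ± 0.26 log2), and Lefty2 had 145, 179 and 143 CPM on day 4, against 62.5, 50.6 and 41.6 CPM on day 3 (1.59 ± 0.24 log2). Follistatin, given above, fell, so the extracellular inhibitors moved in opposite directions. Receptor and SMAD genes moved little: Acvr1b rose by 0.63, Smad3 by 0.34 and Smad2 by 0.19 on the log2 scale. With day 3 replicate 1 left out the log2 fold change of Cfc1 was 6.47.

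BMP pathway genes rose more often than not: of 25 tested, 16 (64.0%) rose, 1 fell and 8 were not called, with a median log2 fold change of 0.94. The ligand gene Bmp2 had 50.997, 49.3 and 44.4 CPM on day 4, against 15.99, 11.3 and 6.52 CPM on day 3 (2.10 ± 0.32 log2), and Bmp4 was not called, at 3.25, 2.14 and 1.18 CPM on day 4 and 1.698, 2.02 and 2.06 CPM on day 3. The signal transducer gene Smad1 had 239, 188 and 187 CPM on day 4, against 87.4, 75.7 and 66.2 CPM on day 3 (1.42 ± 0.10 log2, adjusted p = 6.31e-11). Both were higher in every day 4 library. The target gene Id1, an inhibitor of bHLH factors, had 122, 109 and 100.3 CPM on day 4, against 17.7, 9.21 and 6.21 CPM on day 3 (3.32 ± 0.30 log2, adjusted p = 6.1e-08). Msx2, a homeobox target, rose by 5.62, the inhibitory Smad6 by 2.00, the pseudoreceptor gene Bambi by 1.50 and the extracellular modulator gene Bmper by 3.86 on the log2 scale. Bmpr1b, a receptor gene, was the member that fell (2 fell in 3 of the fits that left out a library), at 1.92, 2.37 and 1.64 CPM on day 4 against 4.67, 4.42 and 6.21 CPM on day 3.

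**Figure D4:**
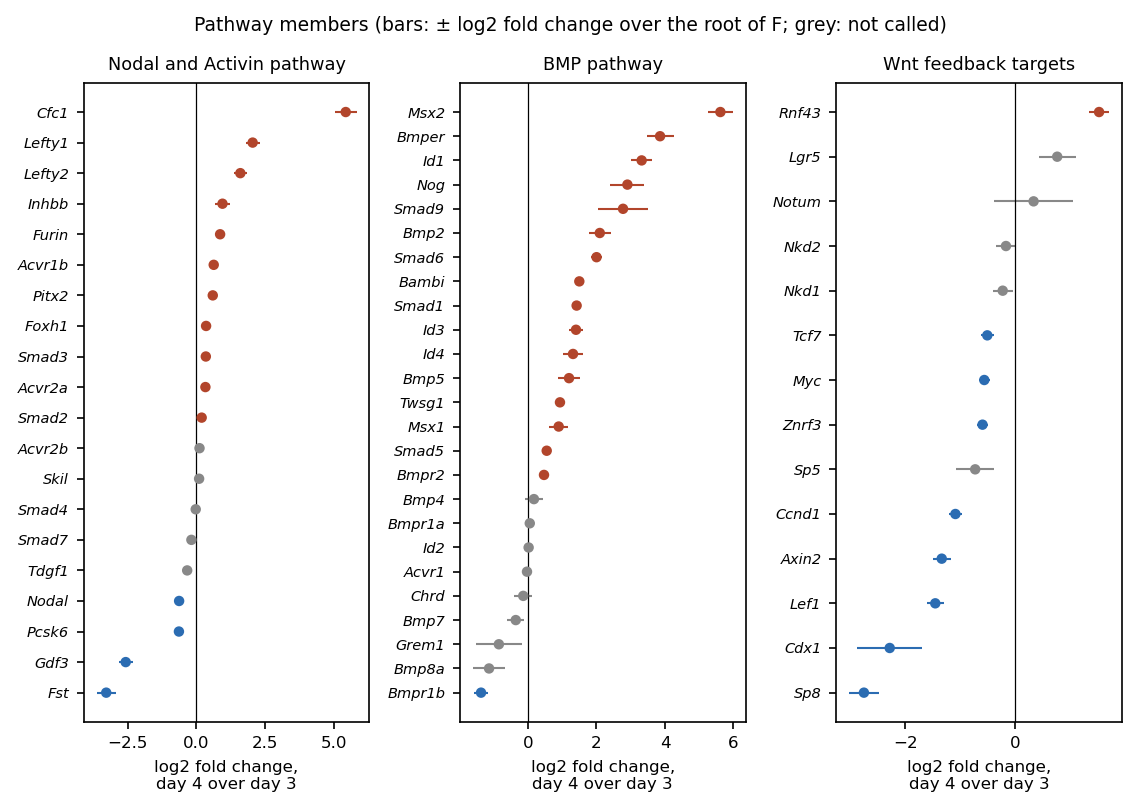
Log2 fold change of day 4 over day 3 for the tested members of 3 lists, with bars of the log2 fold change over the square root of F; red is called higher, blue called lower and grey not called, and Inhba, at 0 counts in the 6 libraries, is not drawn. Cfc1 and Fst mark the ends of the Nodal and Activin list, 16 of 25 BMP genes were called higher, and 8 of 14 Wnt feedback genes were called lower.

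Wnt feedback targets fell more often than they rose. Of 14 tested, 8 (57.1%) fell, 1 rose and 5 were not called, with a median log2 fold change of -0.58. Axin2, the scaffold gene most used as a reporter of canonical Wnt signalling, had 36.2, 36.4 and 43.9 CPM on day 4, against 90.2, 104.6 and 99.7 CPM on day 3 (-1.34 ± 0.17 log2, adjusted p = 1.96e-06). Lef1, a DNA-binding partner of beta-catenin, had 12.7, 13.4 and 16.7 CPM on day 4, against 30.5, 42.7 and 44.3 CPM on day 3 (-1.45 ± 0.15 log2), and Ccnd1, which encodes cyclin D1, had 59.6, 63.3 and 65.4 CPM on day 4, against 130.5, 132 and 138 CPM on day 3 (-1.09 ± 0.11 log2). None of these 3 overlapped between the days. Rnf43, a ubiquitin ligase that removes Wnt receptors, rose, at 9.49, 7.12 and 8.23 CPM on day 4 against 2.64, 2.77 and 3.17 CPM on day 3. Sp5, a zinc finger target, was not called, at 33.7, 36.2 and 47.7 CPM on day 4 and 95.3, 59.7 and 39.9 CPM on day 3, and was called lower without day 3 replicate 3 (adjusted p = 0.0366). Without day 4 replicate 1 or without day 3 replicate 1, 2 targets rose. Among 28 tested ligand and receptor genes 7 rose and 8 fell. The ligand gene Wnt8a had 8.36, 17.3 and 19.7 CPM on day 4, against 84.2, 95.4 and 83.4 CPM on day 3 (-2.53 ± 0.29 log2), and Wnt3, the ligand needed for the streak to form, had 59.2, 51.1 and 53.997 CPM on day 4 against 96.7, 79.8 and 75.9 CPM on day 3 (-0.62 ± 0.15 log2). Rspo1, a secreted enhancer of Wnt signalling, fell by 2.35 on the log2 scale. The receptor gene Fzd5, with the lowest adjusted p of the list, had 626, 475 and 384 CPM on day 4 against 56.6, 49.1 and 40.3 CPM on day 3 (3.35 ± 0.14 log2, adjusted p = 1.81e-12). Of 12 tested secreted and membrane antagonists 6 rose and 3 fell. Together they summed to between 1547 and 2051 CPM in day 4 libraries and to between 139 and 383 CPM in day 3 libraries, with Sfrp1 at 662, 486 and 361 CPM on day 4 against 44.01, 26.7 and 20.998 CPM on day 3.

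FGF ligands moved in both directions. Of 16 tested ligand and receptor genes 6 rose, 6 fell and 4 were not called. Fgf3 had 27.4, 16.95 and 18.1 CPM on day 4, against 1.84, 0.905 and 0.402 CPM on day 3 (4.31 ± 0.31 log2), and Fgf10 had 82.6, 54.6 and 43.03 CPM on day 4, against 5.66, 2.56 and 1.43 CPM on day 3 (4.22 ± 0.40 log2). Fgf4, the ligand of the epiblast, fell to 4.77, 8.15 and 9.28 CPM on day 4, against 9.198, 14.4 and 18.5 CPM on day 3. The 15 ERK feedback genes gave 5 higher, 5 lower and 5 not called, with 3 lower without day 4 replicate 1 or without day 3 replicate 2. Dusp4, a phosphatase of ERK, rose by 1.66 and Etv5, an ETS factor, fell by 1.00 on the log2 scale. Of the 19 tested Notch genes 9 rose and none fell with all libraries in the fit, and Hey1, a target of Notch and BMP signalling, had 37.3, 27.8 and 22.7 CPM on day 4, against 5.71, 4.53 and 5.14 CPM on day 3 (2.51 ± 0.17 log2). Ligands and receptors of the VEGF, PDGF and KIT families had 8 of 15 higher and 1 lower, Pdgfc, whose call was lost in 4 of the 6 fits that left out a library. Kitl, the ligand of KIT, had 94.1, 76.9 and 68.3 CPM on day 4, against 7.22, 5.33 and 3.22 CPM on day 3 (3.93 ± 0.23 log2, adjusted p = 3.22e-11), so the genes of ligand and receptor rose together. Nrp1, a co-receptor of VEGF and semaphorins, had 86.3, 59.2 and 46.4 CPM on day 4, against 2.08, 1.597 and 1.25 CPM on day 3 (5.28 ± 0.40 log2). Of 20 ephrin and Eph receptor genes 12 rose and 4 fell, with Epha4 rising by 1.91 and Epha1 falling by 1.96 on the log2 scale. Of 19 tested retinoic acid genes 6 rose and 6 fell, and the retinoic acid hydroxylase gene Cyp26a1 had 319, 246 and 214 CPM on day 4, against 49.6, 20.1 and 9.02 CPM on day 3 (3.30 ± 0.41 log2). Leaving out day 3 replicate 1, the log2 fold changes were 5.02 for Fgf3, 4.93 for Fgf10 and 4.17 for Cyp26a1.

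Glycolysis and hypoxia response genes rose in part. Of 21 glycolysis genes 10 (47.6%) rose, 1 fell and 10 were not called, with a median log2 fold change of 0.25. Slc2a3, the high-affinity glucose transporter GLUT3, had 2490.1, 2189.9 and 1776 CPM on day 4, against 176, 173 and 165 CPM on day 3 (3.65 ± 0.19 log2, adjusted p = 6.81e-11), or 297 CPM per kb of exon on day 4 against 23.6 on day 3. The other rises of the list were smaller: Eno2, the neuronal enolase gene, rose by 1.20 on the log2 scale, Ldha, lactate dehydrogenase A, had 3606, 3885 and 3646 CPM on day 4, against 3027, 2540.3 and 2577 CPM on day 3 (0.45 ± 0.09 log2), and the glucose transporter gene Slc2a1 had 132, 168 and 139.7 CPM on day 4, against 76.4, 82.8 and 81.7 CPM on day 3 (0.87 ± 0.17 log2). Hk2 and Pkm, which encode a hexokinase and pyruvate kinase, were not called. Gapdh has many pseudogenes, and its counts, at 35.4, 41.3 and 44.4 CPM on day 4 and 173, 44.3 and 71.5 CPM on day 3, are uncertain. Of 25 listed hypoxia response genes 23 were tested, of which 12 (52.2%) rose and 3 fell, with a median log2 fold change of 0.48. Vegfa, the vascular growth factor, had 77.8, 66.8 and 62.6 CPM on day 4, against 15.2, 12.4 and 13.4 CPM on day 3 (2.33 ± 0.11 log2, adjusted p = 1.69e-13). P4ha1, a collagen prolyl hydroxylase, had 154, 137 and 113 CPM on day 4, against 53.7, 32.9 and 37.9 CPM on day 3 (1.69 ± 0.22 log2), and Bnip3, a mitophagy receptor, had 17.6, 28.5 and 17.7 CPM on day 4, against 8.396, 8.04 and 5.94 CPM on day 3 (1.51 ± 0.33 log2). Ndrg1 went against the list, at 10.4, 14.3 and 15.5 CPM on day 4 against 40.7, 40.7 and 27.3 CPM on day 3. Of 80 tested nuclear genes of the respiratory chain 11 rose and 20 fell, with a median log2 fold change of -0.03. Of these 80, 7 rose without day 4 replicate 1 or without day 3 replicate 3, and 12 fell without day 4 replicate 3 or without day 3 replicate 1.

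Because many members of both lists rose, their promoters were read for the letters ACGTG on either strand, a form of the core that hypoxia-inducible factors bind. RefSeq gives some genes several start sites, and the 250 bases before each were read, so that 2394 of the 11936 tested genes with a promoter had more than 1 window. At least 1 window held the letters for 8 of the 9 hypoxia response genes called higher that had a promoter (88.9%) and for 11 of all 17 tested ones (64.7%). The same was so for 4 of the 9 glycolysis genes called higher (44.4%), for the 1 called lower and for 10 of all 20 (50.0%), beside 717 of 2927 of all genes called higher (24.5%) and 2870 of all 11936 tested genes (24%). With only the outermost window of each gene, a setting added after the data were seen, the letters stood in 5 of the 9 hypoxia response genes called higher (55.6%), in 8 of all 17 (47.1%), in 3 of the 9 glycolysis genes called higher (33.3%), in 8 of all 20 (40%), in 21% of all genes called higher and in 20.9% of all tested genes. The match of Vegfa lies in a window inside the gene, and its outermost window has none. The promoters of P4ha1, Bnip3 and Slc2a1 are shown as examples of risers with and without overlapping matches, from RefSeq on GRCm38.p6, 5' to 3' on the gene's strand, with ACGTG or its reverse complement CACGT in capitals. They lie at chr10:59323046-59323295 (plus strand), chr7:138909507-138909756 (minus strand) and chr4:119108495-119108744 (plus strand).
P4ha1: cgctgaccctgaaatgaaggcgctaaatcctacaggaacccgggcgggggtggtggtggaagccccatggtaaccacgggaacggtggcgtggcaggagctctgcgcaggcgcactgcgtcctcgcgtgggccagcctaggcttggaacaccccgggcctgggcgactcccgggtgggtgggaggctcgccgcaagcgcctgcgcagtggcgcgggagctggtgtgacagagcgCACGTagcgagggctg
Bnip3: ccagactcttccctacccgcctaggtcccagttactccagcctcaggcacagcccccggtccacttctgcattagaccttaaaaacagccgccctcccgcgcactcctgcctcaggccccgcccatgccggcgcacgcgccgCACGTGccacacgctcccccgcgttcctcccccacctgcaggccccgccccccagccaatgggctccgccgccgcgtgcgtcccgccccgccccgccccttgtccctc
Slc2a1: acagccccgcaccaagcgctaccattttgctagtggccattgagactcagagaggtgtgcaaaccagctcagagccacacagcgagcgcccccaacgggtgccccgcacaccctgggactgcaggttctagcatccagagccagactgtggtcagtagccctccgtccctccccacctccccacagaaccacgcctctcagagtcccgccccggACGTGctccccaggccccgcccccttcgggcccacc
The P4ha1 promoter has 1 match, the Bnip3 promoter 2 overlapping matches and the Slc2a1 promoter 1. Promoters without a match are not shown. Eno2 has no match in its window, and Slc2a3, the largest riser of the glycolysis list, had no promoter to read. Such a match describes the sequence and is neither a site in use nor a cause, and oxygen was not varied in these samples. Both lists hold genes grouped by known role, so their shares beside those of all genes carry no test of these data.

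Genes of DNA replication, mitosis and ribosome assembly fell by small amounts. Of 29 listed replication genes 27 were tested, of which 21 (77.8%) fell, 1 rose and 5 were not called, with a median log2 fold change of -0.32. Ccne1, which encodes cyclin E1, had 74.5, 84.4 and 84.7 CPM on day 4, against 153, 177 and 181 CPM on day 3 (-1.07 ± 0.06 log2, adjusted p = 3.4e-12), and Mcm5, a subunit of the replicative helicase, had 328, 349 and 372 CPM on day 4, against 534, 527 and 565 CPM on day 3 (-0.63 ± 0.05 log2). The 3 libraries of a day lay close together for both, with a wide gap between days. Of 21 tested mitosis genes 15 (71.4%) fell and none rose, with a median of -0.21. Ccna2, which encodes cyclin A2, fell by 0.56 on the log2 scale, whereas Kif23, a kinesin of cell division, was not called. All 20 ribosome biogenesis genes fell, with a median of -0.51. Ddx21, a nucleolar helicase, had 486, 499 and 485 CPM on day 4, against 776, 779 and 818 CPM on day 3 (-0.69 ± 0.05 log2), and Ncl, nucleolin, had 2682, 2768 and 2636 CPM on day 4, against 4055, 3869 and 3912 CPM on day 3 (-0.55 ± 0.05 log2). Of 75 tested ribosomal protein genes 1 rose, 3 fell and 71 were not called (2 rose without day 4 replicate 2, and 6 without day 3 replicate 1). Npm1, nucleophosmin, had the largest fall per kilobase of exon, at 1266 CPM per kb on day 4 against 1655 on day 3. The other 7 largest falls per kilobase were in the chaperone genes Hsp90ab1, Hsp90aa1, Hspd1 and Hspa8, in Ptma and Hnrnpa1, and in Pim2. Apart from Pim2 these are abundant transcripts whose log2 fold changes lay between -0.49 (Hsp90aa1) and -0.20 (Hsp90ab1), and several have processed pseudogenes that may share reads.

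The letters TTTNNCGC on either strand, an E2F-like motif, stood in at least 1 promoter window of 7 of the 16 replication genes called lower that had a RefSeq promoter (43.8%), 7 of all 21 tested replication genes (33.3%), 1 of 17 tested mitosis genes (5.88%), 292 of 2961 genes called lower (9.86%) and 915 of 11936 tested genes (7.67%). The Mcm5 promoter (chr8:75109259-75109508, plus strand, GRCm38.p6, RefSeq) is shown for its 2 overlapping matches, in capitals.
Mcm5: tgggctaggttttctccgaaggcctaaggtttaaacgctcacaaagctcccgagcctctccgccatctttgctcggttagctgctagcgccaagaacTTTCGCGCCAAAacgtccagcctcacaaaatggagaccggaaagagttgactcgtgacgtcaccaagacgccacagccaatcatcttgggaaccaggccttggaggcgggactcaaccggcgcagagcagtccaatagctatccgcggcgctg
Ccne1 has no match in this window. The replication list too holds genes grouped by known role, so its share carries no test of these data.

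Most keratin and desmosome genes rose. Of 12 tested simple keratin and desmosome genes 9 (75.0%) rose and none fell, with a median log2 fold change of 1.03. Krt8, the simple epithelial keratin of endoderm, had 650.4, 603 and 543 CPM on day 4, against 118, 97.2 and 81.4 CPM on day 3 (2.60 ± 0.25 log2, adjusted p = 2.09e-07), and its partner Krt18 had 404, 388 and 319 CPM on day 4, against 73.9, 73.3 and 64.7 CPM on day 3 (2.39 ± 0.24 log2). Dsp, desmoplakin, rose by 1.86 on the log2 scale. Of 18 tested tight junction genes 10 rose and 2 fell (none without day 3 replicate 3), and Cldn6, the claudin of embryonic epithelia, had 429.7, 419.8 and 379 CPM on day 4, against 178, 183 and 206 CPM on day 3 (1.11 ± 0.14 log2). Among cadherins and regulators of the epithelial-mesenchymal transition, 8 of 18 rose and 1 fell (2 without day 4 replicate 3, and 3 with only the groups compared in the fit or by DESeq2's Wald test). Cdh2, N-cadherin, had 356, 293 and 288 CPM on day 4, against 151, 82.4 and 59.9 CPM on day 3 (1.67 ± 0.26 log2, adjusted p = 4.66e-05), while Cdh1, E-cadherin, was not called, at 987, 1082 and 1076 CPM on day 4 and 852, 1002 and 1025 CPM on day 3, but was called higher without day 4 replicate 1 (adjusted p = 0.0455) and without day 3 replicate 3 (adjusted p = 0.037). Ovol2, a repressor of mesenchymal genes, rose by 2.61 on the log2 scale, and Snai1, a repressor of Cdh1, was not called, at 19.2, 14.2 and 16.1 CPM on day 4 and 16.2, 15.8 and 12.7 CPM on day 3. Of 20 tested actin and serum response factor targets 13 (65.0%) fell and 3 rose, with a median of -0.33. Myl9, a regulatory myosin light chain, had 4.43, 6.01 and 7.097 CPM on day 4, against 31.2, 31.6 and 33.4 CPM on day 3 (-2.45 ± 0.28 log2), while Myh9, a non-muscle myosin heavy chain, rose to 1088, 1069 and 1099 CPM on day 4, against 619, 691 and 640.1 CPM on day 3 (0.74 ± 0.10 log2). Actg1, cytoplasmic gamma-actin, fell by 0.31 and Cnn1, calponin, by 1.67 on the log2 scale.

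Most lysosome genes rose by small amounts. Of 24 lysosome genes 18 (75.0%) rose, none fell and 6 were not called, with a median log2 fold change of 0.50. Npc1, the cholesterol exporter of lysosomes, had 109, 108 and 97.3 CPM on day 4, against 43.02, 44.1 and 47.3 CPM on day 3 (1.22 ± 0.09 log2, adjusted p = 4.74e-11), and Ctsh, a cathepsin, had 25.3, 14.6 and 13.3 CPM on day 4, against 2.12, 1.597 and 1.38 CPM on day 3 (3.38 ± 0.31 log2). Of 22 genes of the endoplasmic reticulum secretory pathway 10 (45.5%) rose, none fell and 12 were not called. Creb3l1, a membrane-bound factor of secretory cells, had 73.5, 52.9 and 45.8 CPM on day 4, against 12.1, 12.7 and 11.6 CPM on day 3 (2.24 ± 0.24 log2), and Hspa5, the chaperone BiP, was not called (0.04 ± 0.06 log2). Slc40a1, the iron exporter ferroportin, had 118, 93.2 and 78.97 CPM on day 4, against 25.4, 27.4 and 27.6 CPM on day 3 (1.85 ± 0.12 log2).

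Most imprinted genes rose. Of 33 listed genes 24 were tested, of which 19 (79.2%) rose, 3 fell and 2 were not called, with a median log2 fold change of 1.17. Peg3, a paternally expressed zinc finger gene, had 1561, 1471 and 1466 CPM on day 4, against 483, 425 and 381 CPM on day 3 (1.80 ± 0.09 log2, adjusted p = 5.02e-12), and its neighbour Usp29 had 52.1, 48.9 and 52.1 CPM on day 4, against 15.4, 12.5 and 10.01 CPM on day 3 (2.01 ± 0.13 log2). H19, a maternally expressed non-coding RNA, had 115, 95.9 and 54.4 CPM on day 4, against 7.55, 6.66 and 5.495 CPM on day 3 (3.75 ± 0.49 log2). The counts do not separate the parental alleles. The falling members were Plagl1, Snrpn and Zdbf2, and the call of Zdbf2 was lost without day 3 replicate 2 (adjusted p = 0.099), without day 4 replicate 1 (adjusted p = 0.117) and with only the groups compared in the fit. Of 16 DNA methylation genes 7 fell and 5 rose (3 without day 4 replicate 1, without day 3 replicate 2 or without day 3 replicate 3), with Dnmt3a, a de novo methyltransferase, falling by 0.71 on the log2 scale. Of 25 tested Polycomb genes 10 fell and 8 rose (5 without day 4 replicate 1 or without day 3 replicate 3). In a fit that omitted day 3 replicate 1, the log2 fold change of Ascl2, also on the imprinted list, was 6.09.

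Axon guidance and matrix genes moved in both directions. Of 33 semaphorin, plexin, slit, netrin and related genes 14 rose and 8 fell, with a median log2 fold change of 0.34. Slit1, a secreted guidance protein, had 71.3, 64.6 and 58.8 CPM on day 4, against 5.38, 2.34 and 3.17 CPM on day 3 (4.15 ± 0.22 log2, adjusted p = 1.64e-12). Its receptor gene Robo1 had 198, 139 and 135 CPM on day 4, against 38.6, 40.5 and 41.1 CPM on day 3 (1.97 ± 0.11 log2, adjusted p = 9.63e-12), so genes of a ligand and its receptor rose here too. Sema6a, a transmembrane semaphorin, fell to 45.3, 57.8 and 73.2 CPM on day 4, against 119, 141 and 155 CPM on day 3 (-1.23 ± 0.18 log2). Of 20 laminin and basement membrane genes 9 rose and 3 fell, led by Lamb3, a laminin chain, at 8.999, 9.08 and 7.23 CPM on day 4 against 0.802, 1.22 and 0.6702 CPM on day 3, while Col18a1, the collagen of basement membranes that yields endostatin, fell by 1.38 on the log2 scale. Fn1, fibronectin, had 585, 449 and 552 CPM on day 4, against 249.9, 250.01 and 191 CPM on day 3 (1.20 ± 0.28 log2). Of 16 integrin genes 4 rose and 4 fell (2 rose without day 3 replicate 1 or without day 3 replicate 3), with the fibronectin receptor chain Itga5 rising by 1.55 and the collagen receptor chain Itga1 falling by 2.03 on the log2 scale.

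The counts of other families and lists are read against the shares over all tested genes, of which 22.4% rose and 23.1% fell. Of 361 tested Zfp zinc finger genes 57 rose (15.8%) and 98 fell (27.1%), with a median log2 fold change of -0.09. Of 31 forkhead genes 12 rose (38.7%) and 7 fell (22.6%), and Foxq1, a forkhead factor of epithelia, had 244, 170.2 and 144 CPM on day 4, against 22.8, 13.7 and 7.28 CPM on day 3 (3.67 ± 0.36 log2, adjusted p = 2.35e-07). Of 5 tested GATA genes 4 rose, the fourth being Gata1, the erythroid factor, at 5.11, 3.31 and 2.37 CPM on day 4 against 0.283, 0.3195 and 0.357 CPM on day 3. Of 41 nuclear receptor genes 10 rose (24.4%) and 11 fell (26.8%), shares near those over all genes, and beside Hnf4a the retinoic acid receptor gene Rarb rose by 3.38 on the log2 scale. Of 19 tested genes of serine, one-carbon and amino acid stress metabolism 3 rose (15.8%) and 9 fell (47.4%), with Slc7a3, a cationic amino acid transporter, at 32.4, 51.1 and 62.2 CPM on day 4 against 131, 164 and 203 CPM on day 3. Of 16 p53 targets 4 rose (25%) and 8 fell (50%), and Pmaip1, which encodes the pro-apoptotic protein NOXA, had 12.7, 16.8 and 16.9 CPM on day 4, against 36.2, 49.4 and 47.3 CPM on day 3 (-1.51 ± 0.13 log2).

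The remaining genes with the lowest log2 fold changes have varied roles. Vat1l fell to 0.344, 1.58 and 2.002 CPM on day 4, against 14.5, 16.9 and 22.5 CPM on day 3 (-3.76 ± 0.28 log2), the lowest value under the conditions given for Hnf4a. Sall3, a spalt zinc finger factor, had 2.56, 3.49 and 6.096 CPM on day 4, against 35.6, 39.1 and 32.3 CPM on day 3 (-3.13 ± 0.27 log2), whereas its relative Sall4 rose. Fam131b fell by 2.81, the forkhead gene Foxi3 by 2.58, the synaptic genes Rims4 and Snph by 2.54 and 2.35 and the glutamate receptor gene Grm6 by 2.34 on the log2 scale. These 7 genes were picked among genes without overlap between the days, so their lack of overlap is no result.

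The same step was set against that of the Setd3 knock-out cells by an interaction term in the 24-library model. The wild-type step differed from the knock-out step for 4079 of 17144 genes (23.8%), lying above it for 1913 (11.2%) and below it for 2166 (12.6%). The knock-out is 1 line, so its step cannot be told apart from a property of that line. Of the 16 endoderm transcription factors 11 differed, 6 above and 5 below. The wild-type step of Gata4 minus that of the knock-out was 4.54 on the log2 scale (adjusted p = 3.22e-05). The wild type averaged 122 ± 35.4 CPM on day 4 and 4.04 ± 2.21 CPM on day 3, and the knock-out averaged 0.897 ± 0.0824 CPM on day 4 and 0.691 ± 0.295 CPM on day 3. For Foxa2 the difference was -3.21 (adjusted p = 6.26e-06). The wild type averaged 152 ± 7.51 CPM on day 4 and 149 ± 29.8 CPM on day 3, and the knock-out averaged 52.5 ± 18.7 CPM on day 4 and 5.55 ± 0.869 CPM on day 3. For Sox17 (-1.47 log2, adjusted p = 0.514) and Gata6 (-2.30 log2, adjusted p = 0.332) the steps were not called different. Sox17 averaged 217 ± 11.2 CPM on day 4 and 18.8 ± 17.7 CPM on day 3 in the wild type. In the knock-out it averaged 7.23 ± 3.81 and 0.221 ± 0.0476 CPM. Gata6 averaged 200 ± 32.7 and 23.5 ± 20.6 CPM in the wild type, and 5.80 ± 3.64 and 0.130 ± 0.110 CPM in the knock-out. Knock-out day 3 levels were near 0, so these differences are loosely set and do not show equal steps. Of the 15 tested streak genes 13 differed, 1 above and 12 below, and of the 14 tested Wnt feedback genes 9 differed, all below. These counts do not tell a smaller fall in the knock-out from a rise there. In the knock-out Mixl1 averaged 1.85 CPM on day 3 and 23.8 CPM on day 4. Axin2 averaged 20.9 and 28.6 CPM there, and Lef1 38.3 and 25.8 CPM.

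**Figure D5:**
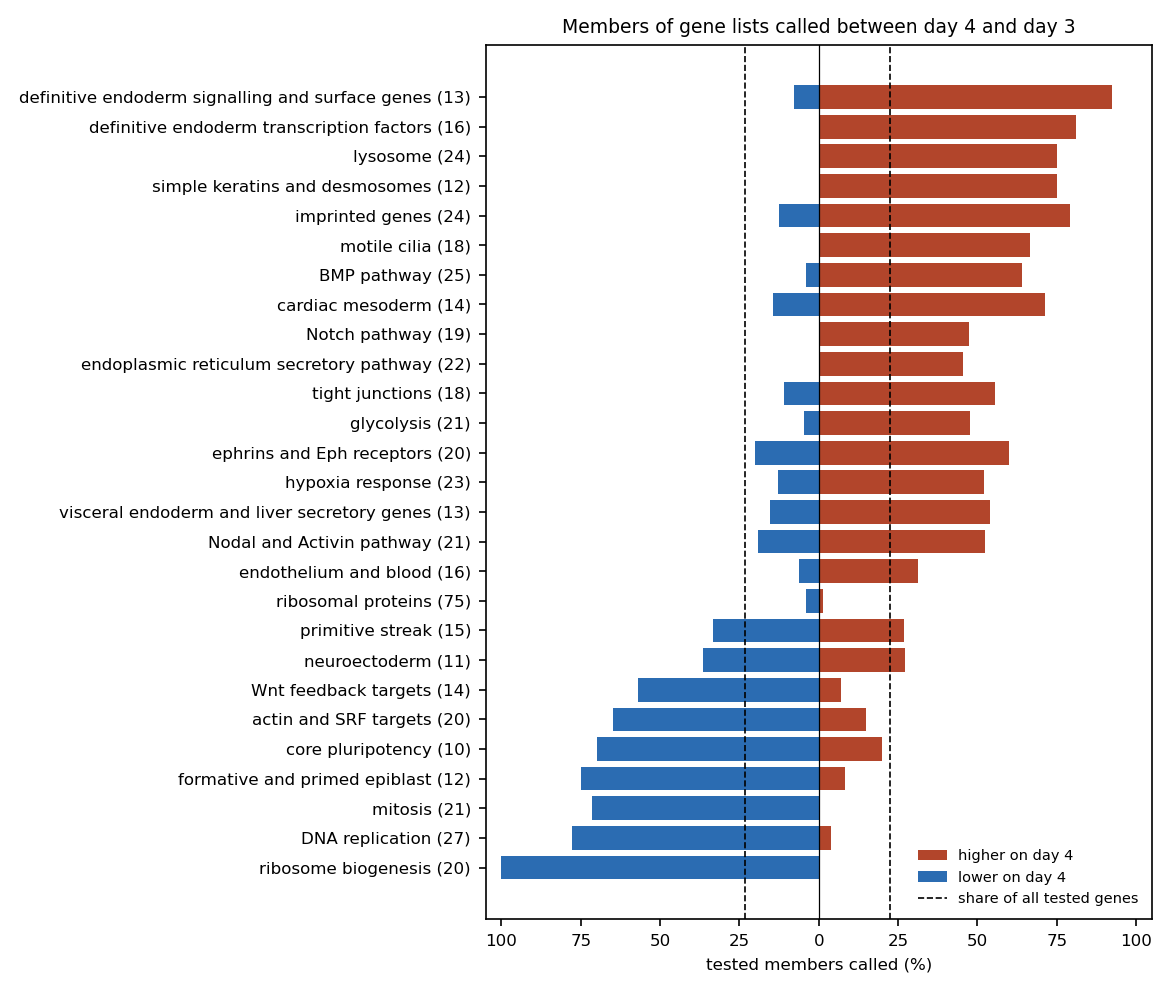
For 27 of the 75 gene lists, the share of tested members (their number in brackets) called higher on day 4 (red, to the right) or lower (blue, to the left), with dashed lines at the shares over all tested genes, 22.4% and 23.1%. Endoderm, lysosome, keratin, imprinted and BMP lists reach past the dashed line at the right, and ribosome biogenesis, replication, mitosis and pluripotency lists reach past it at the left.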

How the data were processed

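Polyadenylated RNA of wild-type and Setd3 knock-out CJ9 cells was sequenced at 4 days with 3 libraries each. The authors deposited 1 table of whole-number counts per gene. The submitters' processing notes list Trimmomatic, HISAT2 and GRCm38.p6. No source used here names the counting tool, the strand setting or the handling of reads with several origins. Of 55401 entries 29207 had counts, and 17144 passed edgeR's filterByExpr over 8 groups. The symbols left blank for 212 tested entries were taken from GENCODE M21 by gene ID where it gave them, and coordinates are those of GENCODE M21 on GRCm38.

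Counts were scaled by TMM and fitted with edgeR 4.0.16 (R 4.3.3, quasi-likelihood test, robust) over all 24 libraries with 1 mean per group. Contrasts were wild-type day 4 minus day 3, and that step minus the knock-out step. Adjusted p-values are Benjamini-Hochberg over all tested genes, with a threshold of 0.05. Depth per library was between 18756912 and 22540026 counts in the 6 libraries, and the biological coefficient of variation was 0.0906. On simulated counts of this contrast, with 16227 genes tested, 40 of 65 genes with a true 1.5-fold change were called (61.5%), as were 52 of 64 with a 2-fold change (81.2%) and 65 of 66 with a 4-fold change (98.5%). Among 16032 unchanged genes 7 were called. The simulation gave every gene the same dispersion around its mean over all 24 libraries and changed few genes. The data differ in both, so these rates need not hold for them.

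The genes, gene lists and members were chosen with earlier results of these data known. Beyond list examples, the text names the 15 highest and 15 lowest log2 fold changes and the 8 largest rises and falls in CPM per kilobase of exon among called genes without overlap, reaching 10 CPM on average on either day and bearing a proper symbol, other than 2 that are not reported here. Tbx1, Slc16a1 and the genes named last, under other observations, were chosen after their values were seen. Alternatives were DESeq2 size factors, no low-count filter, the 2 groups alone, a replicate block, each library left out, and DESeq2 1.42.0's Wald test.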

Additional observations from a re-analysis of the deposited data

Results flagged for a closer look

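For 36 of the genes with the largest changes between day 4 and day 3, the wild-type step differed from the knock-out step by the interaction test (adjusted p under 0.05), and the values below are wild-type step minus knock-out step on the log2 scale. The genes were chosen for their wild-type step, which enters the difference, so their number is no result beside the 23.8% of all tested genes called different. Among genes with high log2 fold changes the difference was 11.41 for Hnf4a, 7.87 for Akr1c19, 5.70 for Pilrb1, 6.29 for Pilra, 6.98 for Sfrp5, 5.02 for Pga5, 4.27 for Tph1, 7.76 for Kcnj5, 5.22 for Tuba8, 6.24 for Myocd and 6.45 for Prss12. The value of Hnf4a is fitted against knock-out day 4 libraries at 0 counts and is no bound. Knock-out means on both days were at most 0.457 CPM for Akr1c19, Pilrb1, Pilra, Sfrp5, Pga5, Kcnj5, Tuba8 and Prss12. Their differences are loosely set too, such as 5.70 ± 2.03 for Pilrb1 and 6.29 ± 2.21 for Pilra. Among genes with low log2 fold changes it was -3.50 for Vat1l, -3.70 for Fst, -3.71 for Sall3, -2.69 for Fam131b, -3.74 for Sp8, -2.10 for Lrp2, -2.16 for Foxi3, -2.33 for Rims4, -5.34 for Wnt8a, -2.13 for Myl9, -2.58 for Snph, -1.95 for Rspo1 and -2.16 for Grm6. On day 3 Fst, Sall3, Sp8 and Wnt8a averaged 315, 35.7, 24 and 87.7 CPM in the wild type. In the knock-out they averaged 41.1, 2.42, 1.88 and 1.54 CPM on day 3 and 55.1, 3.63, 3.73 and 10.8 CPM on day 4. Knock-out cells thus lacked the day 3 level from which the wild type fell. The others of these genes averaged 11.2 CPM (Grm6) or more on knock-out day 3. Among the genes with the largest rises per kilobase of exon the difference was 1.07 for Trh, 2.87 for Amot, 1.42 for Cd24a, 1.63 for Car4, 3.43 for Slc2a3 and 2.09 for Krt8. Among those with the largest falls per kilobase it was -0.23 for Npm1, -0.23 for Ptma, -1.92 for Pim2, -0.27 for Hspd1, -0.20 for Hspa8 and -0.35 for Hnrnpa1. The other 8 genes named by the same rule were not called different. The knock-out is 1 line, so genotype and line cannot be told apart.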

How the results depend on the processing

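The number of genes called between day 4 and day 3 was 7803, and it was 7766 with DESeq2 size factors, 7356 with no filter on low counts, 6799 with only the groups compared in the fit, 7750 by DESeq2's Wald test and between 6773 and 7480 when 1 library was left out. With 1 library left out, between 3371 and 3757 genes were called higher, between 3402 and 3823 lower and between 3393 and 4054 different from the knock-out step. Genes at least 4-fold higher numbered 562, and 756 with no filter, while genes at least 4-fold lower numbered 279, and 155 with only the groups compared. The cause was not tested. With the replicate number as a block, 7844 genes were called, of which 7700 were also called without it, all in the same direction, and the interaction gave 4148 genes in place of 4079. Day 4 and day 3 libraries of the same number correlated in their deviations from the day means by 0.466, 0.0152 and 0.398 over 9298 genes. Replicates 1 and 3 correlated best with their own number, and replicate 2 did not. Deviations within a day depend on each other, so this check cannot decide whether the numbers are pairs. The main fit did not take them as pairs. Of 150 counts of list members called in a direction, 114 stayed within 1.5 times the value given under the alternatives run. Counts of at most 2 members in a direction moved by at most 2, other than ribosomal protein genes called higher, 1 with all libraries and 6 without day 3 replicate 1.

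With only the outermost promoter window of each gene, ACGTG stood in 20.9% of all tested genes and in 21.0% of those called higher, against 24% and 24.5% with every window, and TTTNNCGC in 6.79% of all tested genes, against 7.67%; fewer bases were read. Among the genes named, signs reversed only for genes that were not called. With 1 library left out, log2 fold changes ranged from -0.12 to 0.17 for Foxa2, from -0.21 to 0.49 for Bmp4, from -0.082 to 0.051 for Fgf5 and from -1.22 to 0.15 for Cdx2. Depth limits the folds of genes with few counts on day 3, such as Hnf4a with 5 counts over 3 libraries.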

Other observations

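Of the called genes 16 had 0 counts in all 3 day 3 libraries, with between 7 and 154 counts over the 3 day 4 libraries. Against a floor of 3 counts over the day 3 libraries together, Kif12, a kinesin gene, with 154 counts over the day 4 libraries was at least 50.2-fold higher on day 4, the serpin gene Serpinb6c with 86 counts at least 28-fold, Crisp3, a cysteine-rich secretory protein gene, with 75 counts at least 24.4-fold, and Pnlip, pancreatic lipase, with 68 counts at least 22.2-fold. These genes were chosen after their values were seen.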
